A study of Drosophila melanogaster with 2 samples.

Results

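The authors listed 30000 regions, labelled peaks and background, from the pooled reads of CG4707-GFP chromatin. Of these, 630 had their summit in an annotated 3' UTR. A region was kept when its summit lay in a 3' UTR, in no 5' UTR, and more than 500 bp from every annotated transcription start site (TSS). Of these 630 regions, 39 passed the authors' irreproducible discovery rate threshold, which rests on how alike regions rank in both replicates, and 591 did not. The regions that passed, over the whole genome, are the 3470 of highest pooled signal. The 39 are called 3' UTR peaks below and the 591 sub-threshold 3' UTR regions. Because the list includes background, a sub-threshold region is not taken as a binding site. Chromatin immunoprecipitation with sequencing (ChIP-seq) was done on whole Drosophila melanogaster embryos of both sexes aged 0 to 14 h, from a stable transgenic line in which CG4707 carries GFP at its C terminus. The 2 biological replicates, numbered 2 and 3, form the only group, so there is no untagged or untreated comparison among these samples, and whole embryos mix all cell types. A free-text label names the libraries input controls, but the assay, antibody and control labels describe immunoprecipitation of CG4707 set against another control, and the libraries were taken as immunoprecipitated.

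A 3' UTR is the stretch of an mRNA between the stop codon and the poly(A) tail. In the RNA it is best known as the place where microRNAs and RNA-binding proteins act, and in the fly nervous system many genes use very long forms of it. ChIP-seq, however, reads protein on DNA, so a region here is a place on the chromosome that is transcribed into the end of an mRNA, and nothing in these lists shows contact with the RNA. The same DNA may also belong to a neighbouring gene or to its upstream sequence.

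An 8-mer, CACTGTGC, ranked first in an earlier open search for words more frequent in CG4707-GFP peaks of these data, and 7 of the 39 3' UTR peaks held it within 100 bp of the summit. The sites are shown because this word was more frequent in the 3' UTR peaks than in the sub-threshold 3' UTR regions. It was chosen on peaks of these same libraries, so that difference is not independent evidence. Intronic peaks (11.2% against 2.20% of sub-threshold regions) and intergenic peaks (9.23% against 2.23%) differed in the same direction. Each site is read 5' to 3' from the Release 6 genome of RefSeq (dm6), on the strand that spells the word. The word is in capitals between 11 flanking bases on each side.
CG7872, chrX:15579702-15579731, minus strand: cagccagtggaCACTGTGCcgacgcgtacc
CG7872, chrX:15579870-15579899, plus strand: tactggttgttCACTGTGCctggtttgcac
stas, chrX:17625070-17625099, minus strand: aactggttcttCACTGTGCgtatgagtaat
tio, chr2L:22024712-22024741, minus strand: ctctacacaccCACTGTGCtatgcctgtct
Hk, chrX:10234066-10234095, plus strand: ttttgacattcCACTGTGCatttcgaagcg
Hk, chrX:10234128-10234157, minus strand: acttcaagtccCACTGTGCacacaacaaca
CG34276, chr3R:15927465-15927494, plus strand: aacattttgccCACTGTGCcgaggcagtca
by, chr3R:9528699-9528728, plus strand: tccacttgtccCACTGTGCatttagtcaat

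CG7872 and Hk each held a pair of sites, on opposite strands. Including 1 further site at Gadd45, the 3' UTR peaks held 9 sites, of which 6 had C just before the word and 5 had CC. The word lay on the strand of the host gene at 4 of the 9 sites and on the other strand at the remaining ones. The sites lay 4.5 to 86.5 bp from the summit, with a median of 39.5 bp. All but 1 of them, 8 of 9, were themselves inside a 3' UTR, and the second CG7872 site lay beyond the annotated transcript end. Among the sub-threshold regions, 1 stands out by its sequence and is shown for that reason, chosen after it was seen. At CG17193 the word and its reverse complement overlap, so that a match begins on each strand.
CG17193, chr3R:20039191-20039220, plus strand: gtgctggcaccCACTGTGCacagtgggcaa

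The share of 3' UTR regions that passed the threshold lay between those of coding exons and introns. Past the threshold were 39 of 630 3' UTR regions (6.19%, exact 95% interval 4.44 to 8.37), against 11.6% of all pooled regions and 8.91% of those more than 500 bp from every TSS. Coding exons gave 16 of 791 (2.02%, interval 1.16 to 3.26), an odds ratio of 3.19 for 3' UTRs over coding exons (interval 1.72 to 6.18, two-sided Fisher's exact test, adjusted p = 0.000225). Introns gave 1321 of 13194 (10%, interval 9.51 to 10.5), an odds ratio of 0.593 for 3' UTRs (interval 0.415 to 0.825, Fisher's exact test, adjusted p = 0.00186). Intergenic sequence gave 466 of 6063 (7.69%), and its difference from 3' UTRs did not pass the test (odds ratio 0.793, interval 0.550 to 1.11, Fisher's exact test, adjusted p = 0.204). The 3 p-values were adjusted together by the Benjamini-Hochberg method. Regions, not animals, are the units of these tests, so the p-values describe this list and not the spread between embryos collected anew. With only the 1735 peaks of highest signal the call against coding exons was lost (odds ratio 2.62 by Fisher's exact test, with an adjusted p of 0.0535; 4.90e-06 to 0.0535 over 9 alternatives). The intergenic difference was called without replicate 2 (odds ratio 0.583 by Fisher's exact test, with an adjusted p of 0.00127). That setting used the region list of replicate 3, with 812 3' UTR regions, and its top 3470 regions in place of the authors' threshold. The difference was also called at a TSS distance of 250 bp and with X left out. It was not called in the other 6 alternatives (Fisher's exact test, highest adjusted p = 0.585).

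**Figure D1:**
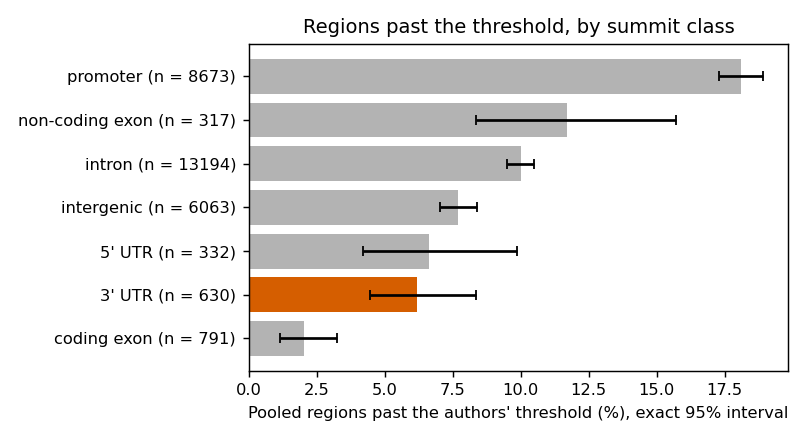
Percentage of pooled regions past the authors' threshold, by the class of sequence that holds the summit; bars are shares and whiskers exact 95% intervals, with the number of regions beside each class. The 3' UTR share of 6.19% stands above the coding exon share of 2.02% and below the intron share of 10%.

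Density along the genome gave the same order of classes. The 3' UTR sequence more than 500 bp from every TSS and in no 5' UTR amounts to 6.77 Mb, and it held 5.76 peaks per Mb. Coding exons held 0.913 per Mb over 17.5 Mb, introns 25.0 per Mb over 52.8 Mb and intergenic sequence 12.8 per Mb over 36.5 Mb. Sub-threshold regions were ordered alike, at 87.3 per Mb in 3' UTRs, 44.2 in coding exons, 153 in intergenic sequence and 225 in introns. These densities are descriptions, with no test.

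The 3 strongest peaks lay in Mipp1, Hr4 and Cals. The strongest 3' UTR peak lay in Mipp1 (FBgn0026061), which encodes multiple inositol polyphosphate phosphatase 1, on chromosome 3L from 16563396 to 16563699. Its peak signal, the caller's own score, was 757 in the pooled list, 315 in replicate 2 and 444 in replicate 3. Scores are not on a shared scale between lists, so ranks are compared: it ranked 137 in the pooled list, 179 in replicate 2 and 116 in replicate 3. The summit lay 382 bp after the stop codon and 90 bp before the transcript end, in a 3' UTR of 473 bp. Next came Hr4 (FBgn0264562), a nuclear receptor of the ecdysone response, on X from 2005922 to 2006137. There the signal was 383 in the pooled list, with ranks of 512, 702 in replicate 2 and 420 in replicate 3, and the summit lay 3496 bp into a 3' UTR of 5416 bp. Then followed Cals (FBgn0039928), the fly calsyntenin, on chromosome 4 from 1113277 to 1113444 (signal 350, rank 613, ranks 551 and 787 in replicates 2 and 3). This summit also lies within the span of sv, the fly Pax2 gene. All 3 were far inside the threshold in both replicates.

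Hosts known from the nervous system come next, grouped after the list was seen and with no test. Sub-threshold regions also lay in such hosts, among them para, elav, Sh and Rbp9, so this trait is not particular to the peaks. The share of such genes was counted neither among the hosts of peaks nor among those of sub-threshold regions. Longer 3' UTRs also offer more places that meet the rule, so the grouping is not read as a finding. In pros, which encodes the homeodomain protein Prospero of neural precursor lineages, the summit lay 896 bp into a 3' UTR of 15530 bp (signal 236, rank 1142, ranks 1378 and 1150 in replicates 2 and 3). The stop codon was thus near and the transcript end 14633 bp away. The peak in qvr, which encodes the Shaker channel regulator Quiver (also called Sleepless), had signal 232 and ranks of 1155 in replicate 2 and 1324 in replicate 3. From the stop codon to the summit was 2990 bp, and the closest TSS, of E(Pc), lay at 1302 bp. Hk encodes Hyperkinetic, the beta subunit of the Shaker potassium channel. The Hk peak, with its pair of 8-mer sites shown above, had signal 225 (71.7 in replicate 2 and 155 in replicate 3), but ranked 2667 in replicate 2 and 808 in replicate 3, a wide gap. NetB, which encodes the axon guidance cue Netrin-B, held a peak 1959 bp into a 3' UTR of 5224 bp (signal 168, ranks 2036 and 2363). In fne, which encodes a neuronal RNA-binding protein of the ELAV family, the peak lay 2380 bp into a 3' UTR of 4927 bp (signal 168, ranks 2491 and 1814). ETHR, the receptor of ecdysis-triggering hormone, held a peak of signal 148 with ranks of 2669 and 2752.

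Other hosts with the 8-mer differed in role and in the place of the summit. CG7872 had signal 287, with 164 in replicate 2 and 125 in replicate 3, and ranks of 667 and 1141, with its summit 59 bp before the transcript end. Gadd45, a stress-response gene, had signal 267 (112 and 153 in replicates 2 and 3) and ranks of 1260 and 822. There the summit lay 54 bp after the stop codon, in the most GC-rich window of the 3' UTR peaks (61.7% GC). The peak of stas, which encodes the membrane protein Stasimon, had signal 256 (125 and 130) and nearly equal ranks of 1038 and 1064. At tio, which encodes the zinc finger protein Tiptop, the signal was 244 (92.3 and 153) and the ranks 1765 and 828. CG34276 had signal 147 (70.6 and 72.7) and ranks of 2734 and 2722. The peak in by, which encodes the focal adhesion protein tensin, had signal 145 (67.3 and 73.7) and ranks of 2984 and 2657. All 7 peaks with the 8-mer thus stood among the top 3470 regions of both replicates, as did 28 of all 39 peaks (71.8%). These peaks were selected by signal pooled from the same replicates, and the difference was not tested.

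The remaining peaks without the 8-mer ran from CG9784 (signal 239, rank 1119) to bun (signal 119, rank 3433). They included APC7, a subunit of the anaphase-promoting complex (signal 202), Uck, a uridine-cytidine kinase (199), scf, or supercoiling factor (183), and nocte, needed for temperature entrainment of the clock (172). Lower in rank stood Actn, or alpha-actinin (142), exu, which serves in bicoid mRNA localisation in the oocyte (136), and the F-box genes Fbxl4 (136) and Ppa (134). Near the threshold were TAF1B, an RNA polymerase I initiation factor (123), and RpS26, a ribosomal protein (121). Hosts without a described role here were CG9500, CG14505, CG13949, CG7778, CG13739, CG14440, CG4822, CG5966, CG8206, CG32206, CG14627 and CG5984, with signals of 119 to 204. Each of the 39 peaks had its own host gene. The 5 peaks just inside the threshold were TAF1B (123), CG14627 (121), RpS26 (121), CG5984 (119) and bun (119). The regions just outside it were lwr, the SUMO-conjugating enzyme gene (117), chm, the acetyltransferase gene chameau (116), Mob2 (115), CG10357 (110) and CG9837 (109).

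Both replicates had a summit within 100 bp of all 39 peaks, and 28 of the 39 (71.8%, exact interval 55.1 to 85.0) stood among the top 3470 regions of both. The top 3470 of replicate 2 held 33 of them and those of replicate 3 held 34, and each was in at least 1 of these. Those outside the top of 1 replicate had pooled ranks from 2264 to 3433. Since pooled signal is drawn from the same reads, these counts are descriptions. RpS26 was the widest apart, with a rank of 9401 in replicate 2 and 2147 in replicate 3, and TAF1B was split the other way, at 2117 and 6332. Other thresholded regions more than 500 bp from a TSS stood among the top of both replicates in 1349 of 1862 cases (72.4%). The difference did not pass the test (odds ratio 0.968, interval 0.463 to 2.17, Fisher's exact test, adjusted p = 1.00). Both groups were selected by signal pooled from these replicates, so the test compares classes of selected peaks and does not measure reproducibility. Across the 39 peaks the signals of the replicates had a Spearman correlation of 0.71. This is a description of points that share 2 libraries and were selected by signal pooled from both. Recovery of the sub-threshold 3' UTR regions is given as a description, since the threshold itself rests on these replicates. Of the 591, 280 had a summit of replicate 2 within 100 bp, 381 one of replicate 3 and 163 (27.6%) both, and the correlation over these 163 was 0.53.

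**Figure D2:**
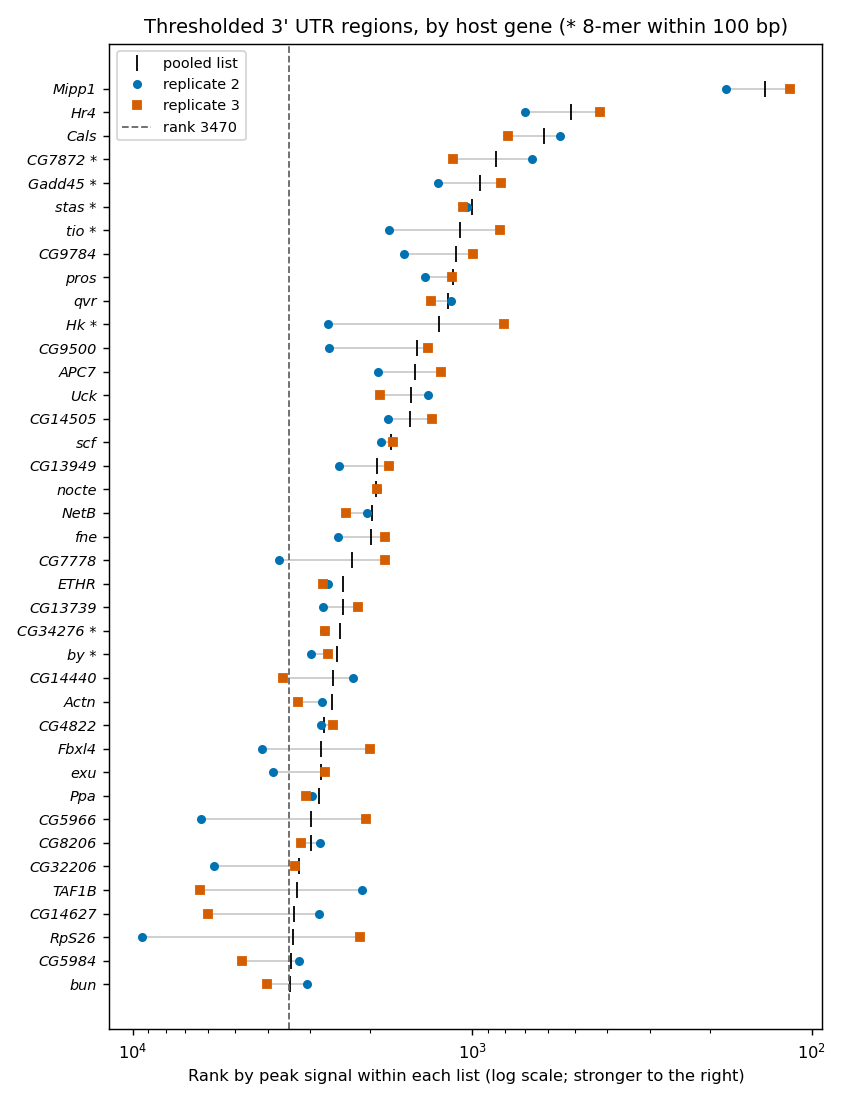
Rank of each of the 39 3' UTR peaks by peak signal in the pooled list (bar), replicate 2 (circle) and replicate 3 (square), by host gene; the log axis runs from weak at the left to strong at the right, the dashed line is rank 3470 and an asterisk marks the 8-mer. Mipp1 leads all 3 lists of these peaks, and RpS26, at 9401 and 2147, has the widest gap between replicates.

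The signal of the 3' UTR peaks was compared with that of other peaks outside promoters, and the difference did not pass the test. Their signal had a median of 168, a lowest value of 119 and a highest of 757, and 16 of them were among the 1735 regions of highest signal. On the log2 scale their median was 7.39, against 7.49 for the other 1862 non-promoter peaks, a difference of -0.10 (two-sided permutation test with 100000 resamples, adjusted p = 0.665). The size of this difference moved with the setting: it was -0.24 without replicate 3, -0.05 without replicate 2, -0.30 at a TSS distance of 250 bp and -0.25 with X left out. It was called in none of its 8 alternatives (permutation test, adjusted p from 0.0806 to 0.843). The sub-threshold 3' UTR regions had a median of 35.8 and reached down to 26.7, with a median rank of 19945. That they lie lower follows from the threshold. Of the 39 peaks, 16 (41.0%) were narrower than the 380 bp at which most regions were deposited, as were 41.7% of all thresholded regions. All 591 sub-threshold regions were 380 bp wide, so width divides these groups only as it divides the whole list.

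The 8-mer was more frequent in 3' UTR peaks than in the sub-threshold 3' UTR regions. It occurred within 100 bp of the summit in 7 of 39 peaks (17.9%, exact interval 7.54 to 33.5) and in 12 of 591 sub-threshold regions (2.03%, interval 1.05 to 3.52). The odds ratio was 10.5 (interval 3.26 to 31.2, two-sided Fisher's exact test, adjusted over 5 tests, p = 0.000295). It was 21.5 with only the 1735 peaks of highest signal counted, and 3.52 for the 6-mer ACAGTG (Fisher's exact test, adjusted p = 0.00367). Every region with the 8-mer also holds this 6-mer, so the 6-mer result is not a separate check. Over all pooled regions 2.93% held the 8-mer, and 9.91% of all thresholded regions did. The word was chosen on peaks of these same libraries, those of 3' UTRs on 2L, 2R and X included, so this is not independent evidence of the word. On the arms that did not serve to choose it, 3L, 3R and 4, the counts were 2 of 11 and 5 of 267, with a similar odds ratio of 11.4 and a wide interval from 0.960 to 82.4 (Fisher's exact test, p = 0.0269, adjusted p = 0.0766). Against other non-promoter peaks, where 198 of 1862 held the word (10.6%), the difference of the 3' UTR peaks did not pass the test (odds ratio 1.84, interval 0.675 to 4.31, Fisher's exact test, adjusted p = 0.551).

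**Figure D3:**
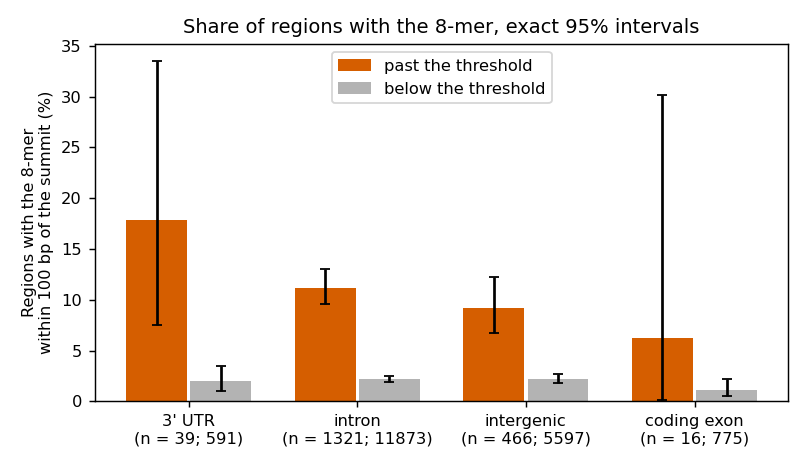
Percentage of regions with the 8-mer within 100 bp of the summit, past and below the authors' threshold, in 4 classes of sequence; bars are shares, whiskers exact 95% intervals, and n gives peaks and then sub-threshold regions. In 3' UTRs the shares were 17.9% and 2.03%, with a wide interval for the 39 peaks that covers the 11.2% of intronic and 9.23% of intergenic peaks.

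Related words gave the same order, as a description that is not separate from the 8-mer. ACAGTGGG, which overlaps the reverse complement of the 8-mer, occurred in 8 of 39 peaks (20.5%) and 3.21% of sub-threshold 3' UTR regions, against 2.80% of all pooled regions. The shared core ACAGTG occurred in 14 of 39 peaks (35.9%) and 13.7% of the sub-threshold ones, against 13.5% of all pooled regions. Every 8-mer site also holds ACAGTG, and each of the 5 peak sites preceded by CC also holds ACAGTGGG. These counts thus partly repeat those of the 8-mer. GAGAGAG, a word of GAGA-binding proteins, was found in 3 of 39 peaks and 4.06% of sub-threshold regions (5.45% of all pooled regions). The DRE word TATCGATA and the Zelda word CAGGTAG were each found in 1 of 39 peaks. Sub-threshold 3' UTR regions held them in 0.338% and 1.69%, and all pooled regions, promoters included, in 1.56% and 1.07%. All of these words were sought on both strands. The poly(A) signal word AATAAA, sought on the strand of the host gene, was present in 12 of 39 peaks (30.8%, interval 17.0 to 47.6) and 138 of 591 sub-threshold regions (23.4%). Most copies of the 8-mer in 3' UTRs had no summit of these regions near them: of 187 in the 6.77 Mb, 8 (4.28%) had a peak summit within 100 bp and 11 (5.88%) a sub-threshold summit.

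The sub-threshold regions with the 8-mer were spread over the whole range of ranks. The highest were chm (signal 116, rank 3569), CG34355 (79.4, rank 6267), para, which encodes the voltage-gated sodium channel (70.4, rank 7510), and ifc, a sphingolipid desaturase gene (69.7, rank 7601). Then came CG17193 (53.6), dally, which encodes a glypican (53.1), CG6118 (44.8), CG30432 (43.7), flw, a protein phosphatase gene (38.8), Adsl (37.7) and CG17652 (37.3). The lowest was robo1, which encodes a receptor of Slit, at signal 27.3 and rank 29097. The chm region ranked 2309 in replicate 2 but 6762 in replicate 3, and that of CG34355 ranked 19018 and 4500.

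Summits lay at all places along the 3' UTRs. Relative to the stop codon at 0 and the transcript end at 1, the median peak summit lay at 0.65 and the median sub-threshold summit at 0.53, and the difference of 0.11 did not pass the test (two-sided permutation test, adjusted p = 0.292). Counted in 4 equal stretches from the stop codon, the peaks numbered 4, 13, 6 and 16, and the sub-threshold regions 141, 140, 158 and 152. Within 100 bp of the transcript end lay 7 of 39 peaks and 71 of 591 sub-threshold regions. The nearest to an end were the summits of CG14505, at 4 bp, scf, at 13 bp, and Uck, at 40 bp. Within 100 bp of the stop codon lay those of Gadd45, Fbxl4 and CG13949.

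**Figure D4:**
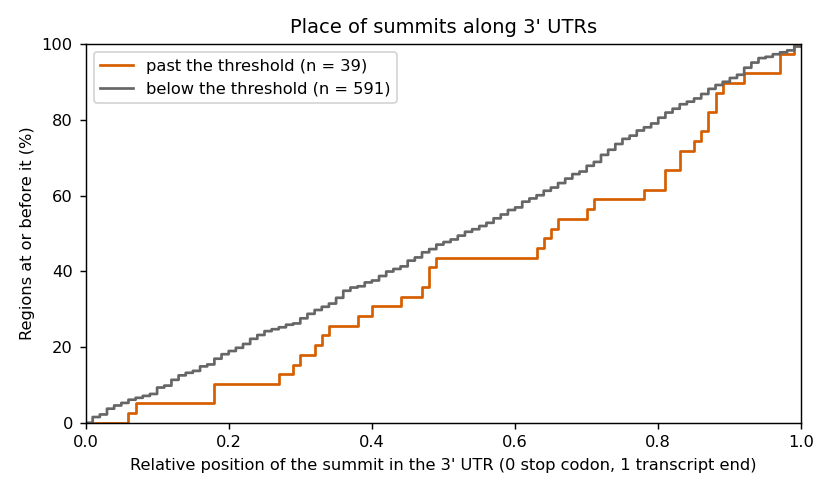
Cumulative share of summits by relative position in the 3' UTR, from the stop codon (0) to the transcript end (1), for the 39 peaks and the 591 sub-threshold regions. The peaks run to the right of the sub-threshold regions, with medians of 0.65 and 0.53, a difference that did not pass the test.

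Differences between peaks and sub-threshold 3' UTR regions in distance to promoters, gene overlap and base composition did not pass the test either. The nearest TSS was a median of 1490 bp away for peaks and 1974 bp for the others (permutation test, adjusted p = 0.292). In both groups the rule sets a lower limit of 500 bp on this distance, so nearer summits are not covered. This TSS belonged to the host gene itself for 16 of 39 peaks (41.0%) and 230 of 591 sub-threshold regions (38.9%). For the other peaks it belonged to another gene, such as UQCR-6.4L for Mipp1, PIG-K for Hr4 and mRpL40 for pros. The summit also lay in the span of another gene in 6 of 39 peaks and 76 of 591 sub-threshold regions (15.4% and 12.9%, odds ratio 1.23, interval 0.408 to 3.11, Fisher's exact test, adjusted p = 0.780). Those 6 pairs were Cals with sv, CG9784 with Ubc7, CG14505 with sbb, CG13739 with CG13954, CG34276 with Fbxl7, and CG4822 with ND-15. The CG4822 summit was the only peak summit that is also coding in another transcript, as were 35 sub-threshold ones. Median GC within 100 bp was 39.8% for peaks and 40.3% for sub-threshold regions (permutation test, adjusted p = 0.874). That difference of -0.50 points turned to 3.98 without replicate 3 and 0.50 without replicate 2, and was -3.98 with X left out (permutation test, adjusted p = 0.0672, 0.812 and 0.115). No peak summit, and 1 sub-threshold summit, fell in an annotated transposable element.

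Host genes had long 3' UTRs. The longest annotated 3' UTR of a host had a median of 1383 bp for the 39 peaks and 1169 bp for the 496 hosts of sub-threshold regions, against 227 bp over all 13534 genes that have one. A longer 3' UTR offers more places that meet the rule, so this difference is not read as a finding. Whether the selection accounts for all of it was not tested. Hosts with a second peak within 500 bp of one of their TSSs numbered 8 of 39, namely Gadd45, Uck, CG34276, by, Fbxl4, exu, Ppa and bun. The share was 20.5%, against 26.2% of the hosts of sub-threshold regions and 12.0% of all 13945 protein-coding genes.

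In all, 528 genes hosted the 630 regions (3.79% of protein-coding genes), and 453 of them hosted 1 region each. The host with the most regions was corto, which encodes a chromatin protein that interacts with Polycomb and trithorax group genes. Its 3' UTR of 6594 bp held 8 regions over 4828 bp, all below the threshold, with signals from 28.0 to 70.3 and a best rank of 7526. CG1888 held 5 regions, and CG4004 and mub held 4 each, with best ranks of 4765, 5091 and 22168. None of these clusters contained a peak. Over all 630 3' UTR regions 6.19% were peaks, so few would be found in so few regions, and this was not tested.

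Among 5 groups of genes tied to control through the 3' UTR, fne was the only gene that hosted a peak. Among 9 genes with long neural 3' UTR forms, 4 hosted a region (elav, fne, brat and pum) and 1, fne, hosted a peak, against backgrounds of 3.79% and 0.280% of protein-coding genes. The elav regions had signals of 43.2 and 37.5, those of brat 45.4 and 44.7, and that of pum 27.6. Replicate 2 had no summit within 100 bp of any of these 5 regions. Of 25 genes of 3' UTR-binding and translational regulators, 5 hosted a region, the 4 just named and Rbp9, another member of the ELAV family (signal 89.5, rank 5251). Among 15 Bearded and Enhancer of split genes, whose mRNAs carry microRNA-responsive boxes, 6 hosted a region and 0 a peak. The strongest was E(spl)m6-BFM (signal 61.8), followed by E(spl)m2-BFM (45.8), E(spl)m4-BFM (31.1), Tom (29.2), E(spl)m5-HLH (27.9) and E(spl)m7-HLH (27.1). Of 9 maternal or localised mRNAs controlled through the 3' UTR, such as osk and grk, and of 13 genes of mRNA 3' end processing, 0 hosted a region. The 3' UTRs of the 6 hosting Bearded and Enhancer of split genes were 192 to 851 bp long, and those of elav and brat 8557 and 8499 bp. The background covers all protein-coding genes, whatever the length of their 3' UTRs. Longer 3' UTRs offer more places that meet the rule, so these shares are not read as findings. The lists were chosen with earlier results of these data known and were not tested.

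By chromosome, the X held 15 of the 39 peaks (38.5%), 139 of 591 sub-threshold 3' UTR regions (23.5%) and 339 of 1862 other non-promoter peaks (18.2%). This count was made after the list was seen and was not tested. Of 3' UTR sequence that meets the rule, 22.8% is on X. On X, 9.74% of 3' UTR regions and 10.4% of other non-promoter regions passed the threshold. On the other chromosomes together these shares were 5.04% and 8.73%. Without X the odds ratio was 0.495 against introns and 0.637 against intergenic sequence (Fisher's exact test, adjusted p = 0.00121 and 0.0362), so the intergenic difference was then called.

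**Figure D5:**
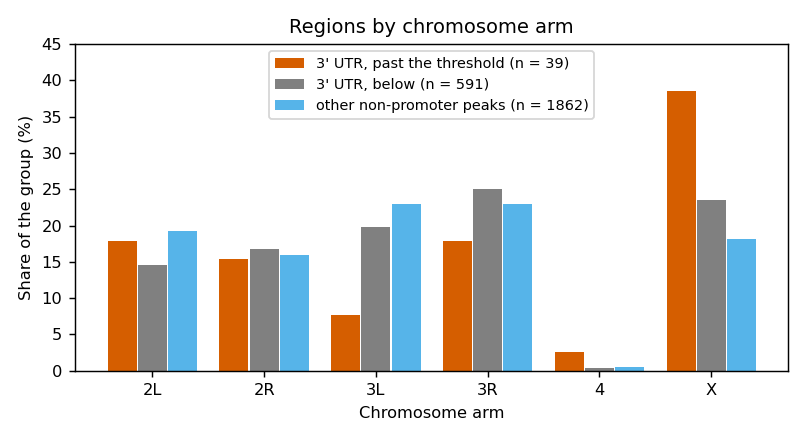
Share of each group of regions on each chromosome arm, for 3' UTR peaks, sub-threshold 3' UTR regions and other peaks more than 500 bp from a TSS; each colour sums to 100%. The X holds 38.5% of the 3' UTR peaks, 23.5% of the sub-threshold 3' UTR regions and 18.2% of the other peaks.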

How the data were processed

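Region lists were deposited by the authors for each replicate and for the pooled reads, with 30000 regions each, and a list of 3470 thresholded peaks, per the deposited file listing. The lists of 30000 regions are labelled peaks and background. Aligner and caller: not given in the sources used here. Coordinates are dm6, per the labels. Peak signal was deposited as a score, in a unit that the authors' caller set and no source describes. Another deposited column, of a different kind, gives the distance from region start to summit. Depth is unknown, and intervals (exact Clopper-Pearson for shares, 95%) cover counting error only.

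Summits were placed on Ensembl release 115 in the first class that applied: promoter (within 500 bp of a TSS), then 5' UTR, 3' UTR, exons that code, exons that do not, introns and intergenic sequence. The 5809 annotated transposable elements were not counted as transcripts. Where several transcripts hold a summit, that with the longest spliced 3' UTR was used. Tests were two-sided Fisher's exact tests and permutation tests of medians (100000 resamples), adjusted within 3 families of 3, 5 and 3 tests, at 0.05. Tests were tried on simulated data.

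The members, gene lists, words and tests were chosen with earlier results of these data known. Named genes are the hosts of all peaks, of regions next to the threshold and of sub-threshold regions with the 8-mer, and list members. Others were named after their values were seen. Alternatives were other TSS distances (250 and 1000 bp), summits coding in any transcript left out, a stricter threshold, regions overlapping a peak left out, each replicate alone, 50 bp windows and the 6-mer. For each replicate alone, its own list of 30000 regions was used, and its top 3470 by signal replaced the authors' threshold. Tests used scipy 1.17.1, tables pandas 2.3.3 and numpy 2.4.6, and plots matplotlib 3.10.9, under Python 3.11.15.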

Additional observations from a re-analysis of the deposited data

How the results depend on the processing

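Of 101 values recomputed under alternatives, 91 kept their side of the threshold and did not turn direction, counting the GC difference in a 50 bp window, which was 0. The difference from introns did so in all of its 9 alternatives. The odds ratio against coding exons was 2.62 under the stricter threshold and no longer called. Against intergenic sequence it was called at a TSS distance of 250 bp (odds ratio 0.701), without replicate 2 (0.583; without replicate 3 it was 0.761 and not called) and, as an alternative chosen after seeing the data, with X left out (0.637). The 8-mer difference within 3' UTRs held in 11 of 12, with odds ratios of 13.7 without replicate 3 and 15.5 without replicate 2. These 11 include peaks on arms where the word was chosen, so they give no independent test of it. The call was lost on 3L, 3R and 4 alone, the arms that did not serve to choose the word (11.4). That alternative was also added later, and fewer regions were tested in it. Differences not called in any setting changed direction as follows. Gene overlap gave 0.867 without replicate 3 and 1.23 without replicate 2. The GC difference was 3.98 points without replicate 3 and 0.498 without replicate 2. Replicate recovery gave 1.15 at a TSS distance of 1000 bp and 1.09 at a summit distance of 50 bp. The cause of these changes was not tested. For recovery under the stricter threshold, all 16 peaks were in the top of both replicates, so no odds ratio was had. Counting transposable elements as transcripts was also added later and changed no call. No paired analysis was possible because the series holds 1 group. Only 39 peaks limit every interval.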
